A study of Drosophila melanogaster with 4 samples.

Results

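Myc and the genes that act with it in making ribosomes were followed in larval wing discs of Drosophila melanogaster in which subunits of the CDK8 module of Mediator had been depleted. Mediator links transcription factors to RNA polymerase II, and its CDK8 module, made of Cdk8, CycC, Med12 and Med13, can hold it back or help it. The genes were taken by symbol from a list of 50 names in 4 deposited tables. Of these names, 45 were listed in at least 1 table, out of 7451 genes listed in any table, and 5 (nop, Polr1A, Polr1B, Polr1C and Polr1D) were listed in none under those names. The largest and the second-largest subunit of RNA polymerase I were listed under their older symbols RpI1 and RpI135 and counted there, and Polr1C and Polr1D were listed as CG3756 and l(2)37Cg and counted among the other polymerase genes below. Of the 45 genes, 12 were listed in all 4 tables, 12 in 3, 16 in 2 and 5 in 1.

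The 4 genotypes were profiled by droplet single-cell RNA sequencing of L3 wing imaginal discs, with 1 library per genotype made from 100 to 120 pooled discs. The genotypes were the Cdk8-CycC depletion (ap-Gal4>GFP/+; UAS-Cdk8i-cycCi/+), the Med12 depletion (ap-Gal4>GFP/+; UAS-Med12i/+), the Cdk8-CycC-Med12 depletion (ap-Gal4>GFP/+; UAS-Cdk8i-cycCi-Med12i/+) and Control (ap-Gal4>GFP/+). All of them, Control included, carried 1 copy of the apterous driver and of GFP, which mark the dorsal compartment, so RNA interference acted in the GFP-positive cells and the GFP-negative cells of the same discs did not carry an active driver. Each deposited table compared the GFP-positive with the GFP-negative cells of 1 library, and in every table nub, which marks the pouch that forms the wing blade, was detected in 100% of the cells of each set. With 1 library per genotype no difference between genotypes could be tested, and all statements below describe these 4 libraries.

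Myc is a transcription factor that binds DNA with its partner Max and drives growth, and Mnt competes with it for Max. Ribosome production starts in the nucleolus, where RNA polymerase I transcribes the ribosomal RNA precursor. Small nucleolar RNA-protein particles (snoRNPs) then guide methylation and pseudouridylation of that RNA, nucleases including the exosome trim it, and assembly factors build the large and the small subunit around it. In Drosophila, many of the genes for these steps are known targets of Myc, and wing disc cells with little Myc stay small.

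Not every name on the list belongs to this pathway. Of the genes listed, kra encodes a mimic of translation factor eIF5, eRF1 a translation release factor, Mat1 a subunit of the CDK7-activating complex, Rrp1 a DNA repair endonuclease and nst a phosphoacetylglucosamine mutase. They were kept, since the symbols chose them, and are given apart as genes of another known role. Bka and l(3)72Dn are given no role here. Of RNA polymerase III, the names held Polr1C and Polr1D, the subunits it shares with polymerase I, and no subunit of its own.

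The targeted genes followed the labels. In the authors' deposited table, CycC was detected in 18.9% of the GFP-positive cells and 32.2% of the GFP-negative cells of the Cdk8-CycC depletion and in 32.8% and 48% of those of the combined depletion, against 43.2% and 32.4% in Control. The gene for Med12, kto, was detected in 32% of the GFP-positive cells and 38.9% of the GFP-negative cells of the Med12 depletion and in 35% and 45.4% of those of the combined depletion, against 38.6% and 28.6% in Control. The driver gene ap was detected in 62.6% to 68.1% of the GFP-positive cells and 5.3% to 7.2% of the GFP-negative cells of the 4 libraries. Of 8 hemocyte markers 1, crq, was listed, and Hml, srp, NimC1, Pxn, Col4a1, vkg and eater were listed in no table. Of 6 myoblast markers Mef2 was listed and twi, zfh1, htl, Him and stumps were not. A gene that is not listed has no value here, so a missing marker does not show that its cell type was absent. Of the tracheal markers trh was listed, with log2 folds (GFP-positive over GFP-negative mean expression) of -0.12 in the Med12 depletion and -0.17 in the combined depletion, and in no other table. Ubx, which in the wing disc marks the peripodial layer, had 3.86, 4.58 and 4.51 in the Cdk8-CycC, Med12 and combined depletions, against 4.62 in Control. It was detected in 93.5%, 89.4% and 88.1% of the GFP-positive cells of those depletions, against 96% in Control. In GFP-negative cells the shares were 24.8%, 35.1% and 18.6%, against 39.7% in Control. Whether these Ubx values reflect peripodial cells was not tested. Markers of disc regions differed between libraries as well. The mean of nub was lower in GFP-positive cells everywhere, at -0.33, -0.45 and -0.52 in the Cdk8-CycC, Med12 and combined depletions, against -0.36 in Control. The pouch gene vg had -0.08, 0.18 and 0.22 in those depletions, against -0.03 in Control. Of the other pouch genes, sd was listed in the Cdk8-CycC depletion alone, at -0.17. In that depletion rn had -0.25 and Dll 0.07, against -0.26 and 0.01 in Control, and neither was listed elsewhere. Of the notum markers found in at least 10% of cells, 5 of 5 were above 0 in the Cdk8-CycC depletion, 0 of 3 in the Med12 depletion and 4 of 5 in the combined depletion, against 5 of 5 in Control. Of all genes, 22.8%, 26.7% and 24.6% were below 0 in those depletions, against 45.3% in Control. Among these notum markers eyg had -0.02 and mirr -0.11 in the Med12 depletion, against 0.19 and 0.03 in Control. The notum markers tup and pnr, found in less than 10% of the cells of both sets, had 0.02 each in the Med12 depletion, against 0.03 and 0.07 in Control. The part of these markers in the values below was not tested. Cell numbers and depth per cell are not known from the sources used here.

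Myc (FBgn0262656) was lower in GFP-positive than in GFP-negative cells of all 4 libraries. The values are log2 folds of mean expression, GFP-positive over GFP-negative, converted from the authors' deposited table, which is read as a natural log with a pseudocount of 1 and so understates differences of weakly expressed genes. The log2 fold of Myc was -0.25 in the Cdk8-CycC depletion, -0.40 in the Med12 depletion and -0.31 in the combined depletion, against -0.32 in Control. Control had no interference construct, so the lower Myc level of the marked cells was there without any depletion. The Med12 depletion lay furthest from 0, 0.08 below Control, and the Cdk8-CycC depletion lay nearest to it, 0.07 above Control. Myc was found in nearly all cells: in the deposited table in 96.7% of the GFP-positive cells and 95.6% of the GFP-negative cells of the Cdk8-CycC depletion, 95.4% and 94.2% of those of the Med12 depletion, 98.7% and 97.2% of those of the combined depletion, and 96.3% and 95.8% of those of Control. A lower mean therefore went with an equal or slightly larger share of cells with the gene. Mnt (FBgn0023215) had log2 folds of 0.01, 0.05 and 0.02 in the Cdk8-CycC, Med12 and combined depletions, against -0.05 in Control. Mnt was thus above 0 in each depletion, at a size far below the folds used as limits here. So were most genes: 22.8%, 26.7% and 24.6% of all genes were below 0 in those depletions.

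**Figure D1:**
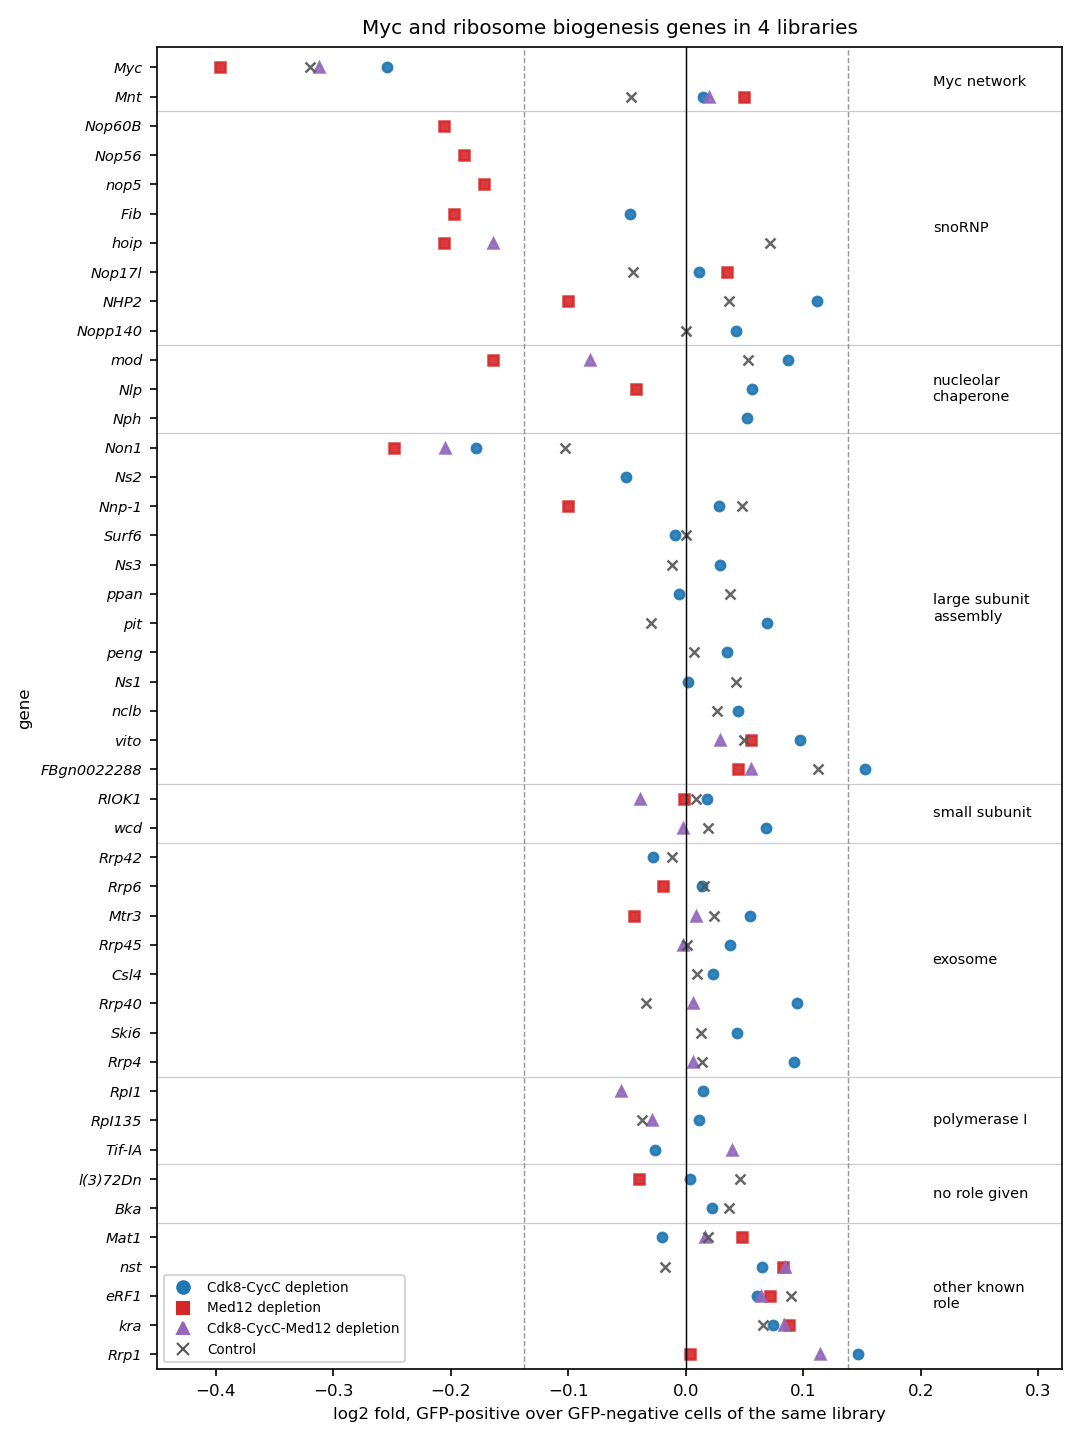
Log2 fold of mean expression, GFP-positive over GFP-negative cells (horizontal axis), of each of the 45 genes (rows, grouped by role), with a marker for each of the 3 depletions and Control and dashed lines at a 1.1-fold difference. Myc lies left of the lower line in all 4 libraries, and the Med12 depletion (squares) has 8 of its 24 genes there.

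Most of the snoRNP genes listed in the Med12 depletion lay below 0 there. Fib (fibrillarin, the methyltransferase of the box C/D particle, FBgn0003062), Nop56 (FBgn0038964), nop5 (FBgn0026196) and hoip (FBgn0286786), core proteins of the same particle, had log2 folds of -0.20, -0.19, -0.17 and -0.21 there. Nop60B (FBgn0259937), the pseudouridine synthase of the box H/ACA particle, had -0.21, and NHP2 (FBgn0029148), a core protein of that particle, had -0.10. Nop17l, which belongs to the R2TP chaperone of snoRNP assembly, was the exception at 0.03. Of the 7 snoRNP genes listed, 6 lay below 0, where 26.7% of all genes of that table did. The 5 lowest were lower by at least 1.1-fold, where 2.14% of all genes were, and 5.41% of the genes found, as these were, in at least 80% of the cells of a set. Nop56, nop5 and Nop60B were listed in this library's table alone and so entered these counts only through it. The counts therefore do not set the Med12 depletion apart from the other libraries. In the same library nub and the notum markers eyg and mirr lay below Control and the pouch gene vg lay above it, by the values given above. The part of these markers in the snoRNP values was not tested.

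In the other libraries few of these genes could be set beside the Med12 depletion, and in the combined depletion hoip was the 1 snoRNP gene of the list with a value. Nop56, nop5 and Nop60B were listed in no other table. Fib had a log2 fold of -0.05 in the Cdk8-CycC depletion and was not listed in the combined depletion or in Control. The log2 fold of hoip was -0.21 in the Med12 depletion and -0.16 in the combined depletion, against 0.07 in Control. NHP2 had 0.11 in the Cdk8-CycC depletion and -0.10 in the Med12 depletion, against 0.04 in Control. A gene was listed only where the authors' p-value over the cells of that library was below 0.01, and a gene missing from a table is without a value there. For Fib, Nop56, nop5 and Nop60B, therefore, no difference from Control can be given. Nopp140, a chaperone of snoRNPs, was listed in the Cdk8-CycC depletion at 0.04.

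In the same library these snoRNP genes were detected in a larger share of the marked cells. In the authors' deposited table Fib was found in 89.8% and 87.6%, Nop56 in 96.2% and 94.3%, nop5 in 92.3% and 89.6%, Nop60B in 96.9% and 94.8%, and hoip in 96% and 92.8% of GFP-positive and GFP-negative cells. The share of cells and the mean level thus pointed in opposite directions, as they did for Myc. This was no feature of these genes: 98.51% of all genes of that table, and all 24 genes described here, were found in a larger share of GFP-positive cells. In the Cdk8-CycC depletion, the combined depletion and Control 99.34%, 99.42% and 99.28% of all genes were, together with all 41, 21 and 35 genes of the list. Whether the GFP-positive cells were sequenced more deeply was not tested.

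Among the nucleolar chaperones, mod (FBgn0002780), a nucleolin-like protein that binds DNA and RNA, differed most between the libraries. Its log2 fold was 0.09 in the Cdk8-CycC depletion, -0.16 in the Med12 depletion and -0.08 in the combined depletion, against 0.05 in Control. The 2 libraries with Med12 interference lay below 0 and the other 2 lay above it. Nlp, of the nucleoplasmin family of histone chaperones, had 0.06 in the Cdk8-CycC depletion and -0.04 in the Med12 depletion. Nph, of the same family, was listed in the Cdk8-CycC depletion at 0.05.

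Of the assembly factors of the large subunit, Non1 (FBgn0028473), a nucleolar GTPase, was below 0 in every library. Its log2 fold was -0.18 in the Cdk8-CycC depletion, -0.25 in the Med12 depletion and -0.21 in the combined depletion, against -0.10 in Control. Each depletion was below Control, by 0.08, 0.15 and 0.10. Nnp-1 (FBgn0022069), whose human relative acts in ribosomal RNA processing, had 0.03 in the Cdk8-CycC depletion and -0.10 in the Med12 depletion, against 0.05 in Control. Among these factors 2 lay above 0 in every library: vito, a nucleolar protein needed for growth, with log2 folds of 0.10, 0.06 and 0.03 in the Cdk8-CycC, Med12 and combined depletions, against 0.05 in Control, and the gene FBgn0022288 with 0.15, 0.04 and 0.06, against 0.11 in Control.

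The remaining large-subunit factors were listed in the Cdk8-CycC depletion but not in the Med12 or combined depletions. They are the GTPases Ns1, Ns2 and Ns3 of the nucleostemin family, the DEAD-box helicase pit, and nclb, peng, ppan and Surf6. Their log2 folds in the Cdk8-CycC depletion ran from -0.05 for Ns2 to 0.07 for pit, close to 0. In Control pit had -0.03 and ppan 0.04, and Ns2 was not listed.

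Genes of the small subunit and of the exosome stayed inside the 1.1-fold limit in all libraries, as most genes did. In the Cdk8-CycC, Med12 and combined depletions 6.02%, 5.51% and 5.12% of all genes were higher by that fold, against 2.02% in Control. Lower by it were 1.44%, 2.14% and 1.46% of all genes in those depletions, against 1.35% in Control. RIOK1, a kinase of late small-subunit maturation, had 0.02, -0.0014 and -0.04 in the Cdk8-CycC, Med12 and combined depletions, against 0.01 in Control. The small-subunit factor wcd had 0.07 in the Cdk8-CycC depletion and -0.0024 in the combined depletion, against 0.02 in Control. The exosome genes Rrp4 and Rrp40, of its cap, had 0.09 each in the Cdk8-CycC depletion and 0.01 each in the combined depletion, against 0.01 for Rrp4 and -0.03 for Rrp40 in Control. Mtr3, of its ring, had 0.05 in the Cdk8-CycC depletion, -0.04 in the Med12 depletion and 0.01 in the combined depletion, against 0.02 in Control. Rrp6, its nuclear nuclease, had 0.01 in the Cdk8-CycC depletion and -0.02 in the Med12 depletion, against 0.02 in Control. Csl4, Rrp42, Rrp45 and Ski6 were between -0.03 and 0.04 wherever listed.

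Transcription of ribosomal RNA was represented by 3 genes under the names searched, and the Med12 depletion listed none of these 3. RpI1 had 0.01 in the Cdk8-CycC depletion and -0.06 in the combined depletion. RpI135 had 0.01 in the Cdk8-CycC depletion and -0.03 in the combined depletion, against -0.04 in Control. Tif-IA, the initiation factor of polymerase I, had -0.03 in the Cdk8-CycC depletion and 0.04 in the combined depletion. CG3756, the Polr1C of the list under its older name, had 0.04 in the Cdk8-CycC depletion, -0.00026 in the Med12 depletion and 0.02 in the combined depletion, against 0.0036 in Control. The Polr1D gene, l(2)37Cg, had 0.03 in the Cdk8-CycC depletion and -0.02 in the Med12 depletion.

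All 5 genes of another known role were above 0 in the Med12 depletion, where 26.7% of all genes were below 0. Most genes of that table were thus above 0 as well. Rrp1 had 0.00 there, Mat1 0.05, eRF1 0.07, nst 0.08 and kra 0.09. The log2 fold of nst was 0.06 in the Cdk8-CycC depletion and 0.08 in the combined depletion, against -0.02 in Control. Rrp1 had 0.15 in the Cdk8-CycC depletion and 0.11 in the combined depletion, and was not listed in Control.

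Counted over the whole list, the Cdk8-CycC depletion had 9 of 41 genes below 0, where 22.8% of all genes of its table were, with a median log2 fold of 0.03. The Med12 depletion had 15 of 24 below 0, where 26.7% of all genes were, with a median of -0.04. The combined depletion had 9 of 21 below 0, where 24.6% of all genes were, and a median of 0.01. Control had 10 of 35 below 0, where 45.3% of all genes were, and a median of 0.01. Genes found in less than 10% of the cells of both sets were left out of the shares over all genes, and every gene on the list was found in at least 24.2% of its better set. The Med12 depletion was the library in which the count below 0 stood furthest above the share among all genes. That count holds Nop56, nop5 and Nop60B, which were listed in no other table.

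At a fold of at least 1.1, 8 of 24 genes were lower in the Med12 depletion, where 2.14% of all genes were: Myc, Non1, Nop60B, hoip, Fib, Nop56, nop5 and mod. Of these, Nop60B, Nop56 and nop5 were listed in that table alone. At that fold 2 of 41 genes were lower in the Cdk8-CycC depletion (Myc and Non1), where 1.44% of all genes were, 3 of 21 in the combined depletion (Myc, Non1 and hoip), where 1.46% were, and 1 of 35 in Control (Myc), where 1.35% were. Higher by that fold were FBgn0022288 and Rrp1 in the Cdk8-CycC depletion, where 6.02% of all genes were, and no gene of the list in the Med12 depletion, the combined depletion or Control, where 5.51%, 5.12% and 2.02% of all genes were. The fold past which genes are called here, 1.3, was reached by Myc in the Med12 depletion, where 0.364% of all genes were lower by it, and by no other gene of the list in any library. Were the deposited fold a log2 value, Myc would stand at -0.27 there and no gene would reach it. In the Cdk8-CycC and combined depletions 0.165% and 0.446% of all genes were lower by it, against 0.0792% in Control. The 8 genes of the Med12 depletion were each found in at least 80% of the cells of a set. Among all genes found so, 5.41% were lower by 1.1-fold there, and 8 of 14 genes of the list were. The part of detection level in these counts was not tested. Genes of cytoplasmic ribosomal proteins lay below 0 in the same library and in the other depletions, with median log2 folds of -0.11, -0.10 and -0.12 in the Cdk8-CycC, Med12 and combined depletions, against -0.02 in Control. Their part in the values of the snoRNP genes was not tested.

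**Figure D2:**
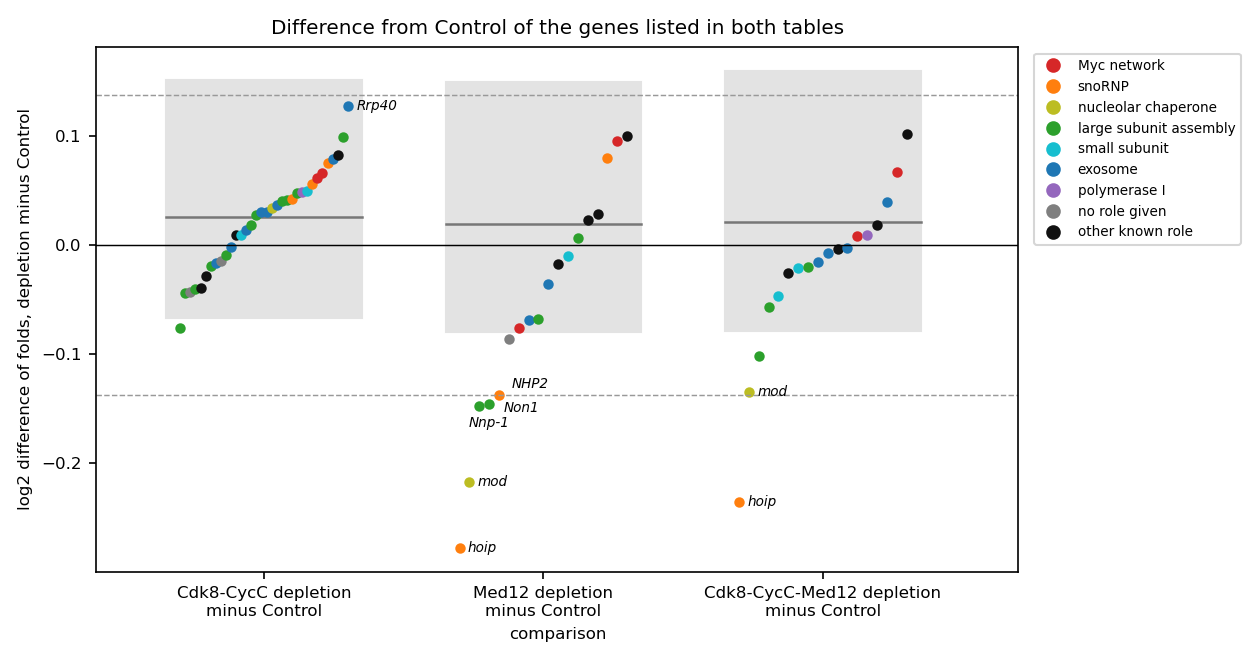
Difference of log2 folds, depletion minus Control, of each gene listed in both tables (points, coloured by role), with the median (grey line) and the middle 95% (grey box) of all genes and dashed lines at a 1.1-fold difference. In the Med12 depletion hoip, mod, Nnp-1 and Non1 lie below the lower dashed line, in the combined depletion hoip alone does, and in the Cdk8-CycC depletion all 34 genes lie between the dashed lines.

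Setting each depletion against Control asks what interference added to the difference that the marked cells show without it. The value is the log2 fold of the depletion minus that of Control, over genes listed in both tables. All 3 differences share the single Control library, and whatever sets that library apart enters each of them.

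In the Med12 depletion, 12 of 18 genes lay below Control, where 30.4% of all genes did, and the median difference was -0.05, against 0.02 over all 4473 genes. On the ratio of detection shares, centred on all genes, 9 of 18 lay below Control. Lower by at least 1.1-fold were 4 genes, where 1.16% of all genes were lower and 3.17% higher by it: hoip by a difference of -0.28, mod by -0.22, Nnp-1 by -0.15 and Non1 by -0.15. NHP2 lay at the limit with -0.14, just inside it. Were the deposited fold a log2 value, 2 genes, hoip and mod, would be lower by 1.1-fold, where 0.425% of all genes would be. The highest were nst and Mnt with 0.10 each and Nop17l with 0.08. No gene of the list reached a difference of 1.3-fold, where 0.112% of all genes were lower and 0.268% higher.

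In the combined depletion, 12 of 18 genes lay below Control as well, where 28.7% of all genes did, but the median was -0.01, against 0.02 over all 4835 genes. Lower by at least 1.1-fold was hoip, with -0.24, where 1.24% of all genes were lower and 3.29% higher by it. The next lowest were mod with -0.13 and Non1 with -0.10, and the highest were nst with 0.10, Mnt with 0.07 and Rrp40 with 0.04. Myc differed from Control by 0.01. No gene reached a difference of 1.3-fold, where 0.207% of all genes were lower and 0.207% higher.

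In the Cdk8-CycC depletion, 11 of 34 genes lay below Control, where 24.5% of all genes did, and the median of 0.03 was, to 2 decimals, that of all 5073 genes. No gene differed by 1.1-fold, where 3.19% of all genes were higher and 0.808% lower, and at 1.3-fold 0.0394% of all genes were higher and 0.0788% lower. The highest were Rrp40 with 0.13, pit with 0.10 and nst with 0.08, and the lowest were Non1 with -0.08 and ppan and l(3)72Dn with -0.04 each. The number of genes that could be compared was larger here, 34 against 18 in each of the other depletions, because fewer genes of the list were missing from its table.

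The depletions were also set against each other without Control. Between the Cdk8-CycC and the Med12 depletion, 14 of 20 genes were higher in the Cdk8-CycC depletion, where 55.2% of all genes were. Higher by at least 1.1-fold were 5 genes, where 2.32% of all genes were: mod by 0.25, NHP2 by 0.21, Fib by 0.15, Rrp1 by 0.14 and Myc by 0.14. With the fold read as log2, mod and NHP2 would be the 2 genes past it, where 0.952% of all genes would be. None was lower by that fold, where 2.34% of all genes were. Between the combined and the Med12 depletion the list was near the share of all genes: 6 of 14 were lower in the combined depletion, where 47.7% of all genes were. None differed by 1.1-fold, where 0.743% of all genes were higher and 0.663% lower. The largest of these differences were 0.11 for Rrp1 and 0.08 for Myc and for mod. On the ratio of detection shares, centred on all genes, 12 of 14 were lower in the combined depletion. Between the combined and the Cdk8-CycC depletion, 14 of 20 genes were lower in the combined depletion, where 54.8% of all genes were, and mod, with -0.17, was the gene lower by 1.1-fold, where 1.56% of all genes were lower and 1.81% higher by it. With the fold read as log2, none would be, where 0.639% of all genes would be lower.

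The libraries differed in which genes were listed. Of the 45 genes, 41 (91.11%) were listed in the Cdk8-CycC depletion, 24 (53.33%) in the Med12 depletion and 21 (46.67%) in the combined depletion, against 35 (77.78%) in Control. Of all 7451 genes, 91.25%, 74.73% and 85.59% were listed in those depletions, against 74.14% in Control. The list was thus near the share of all genes in the Cdk8-CycC depletion and Control and below it in the Med12 and combined depletions. Of 30 other ribosome biogenesis genes, 96.67% were listed in the Cdk8-CycC depletion, 26.67% in the Med12 depletion and 53.33% in the combined depletion, against 83.33% in Control. Ribosomal protein genes did not share this shortfall: of 84 cytoplasmic ones, 98.81%, 92.86% and 92.86% were listed in the depletions, against 48.81% in Control, and of 72 mitochondrial ones 98.61%, 88.89% and 90.28%, against 97.22% in Control. Listing depends on the number of cells and on depth as well as on the size of a difference, and which of them set these shares was not tested.

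**Figure D3:**
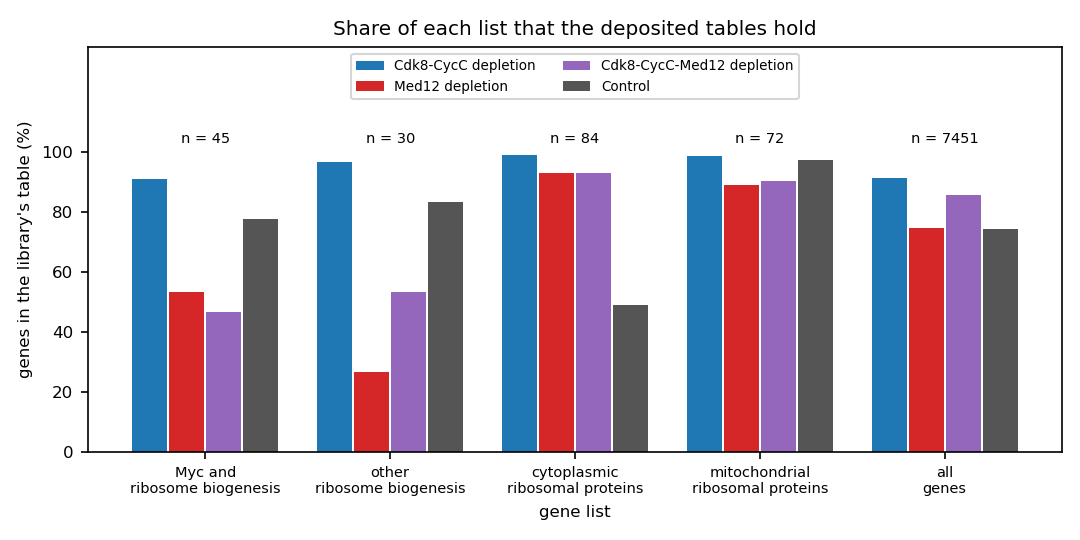
Percentage of the genes of each list, among those listed in at least 1 table, that each library's table lists, for the 3 depletions and Control. The Myc and ribosome biogenesis genes and the other ribosome biogenesis genes drop below all genes in the Med12 and combined depletions, and the cytoplasmic ribosomal protein genes do so in Control.

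The 12 genes listed in all 4 tables allow a comparison on the same genes. Of these, 4 (eRF1, kra, FBgn0022288 and vito) were above 0 in every library, as 38.53% of all 4300 such genes were. Myc and Non1 were below 0 in every library, as 2.95% of all such genes were. Mat1, Mnt, Mtr3, RIOK1, mod and nst took both signs, as 58.51% did. The lowest log2 fold of a gene fell in the Med12 depletion for 5 of the 12, in Control for 3, and in the Cdk8-CycC and combined depletions for 2 each. Over all 4300 genes it fell in Control for 51.93% and in the Med12 depletion for 17.91%. Being listed everywhere selects genes that differ between the cell sets in every library, so these 12 do not stand for the list.

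**Figure D4:**
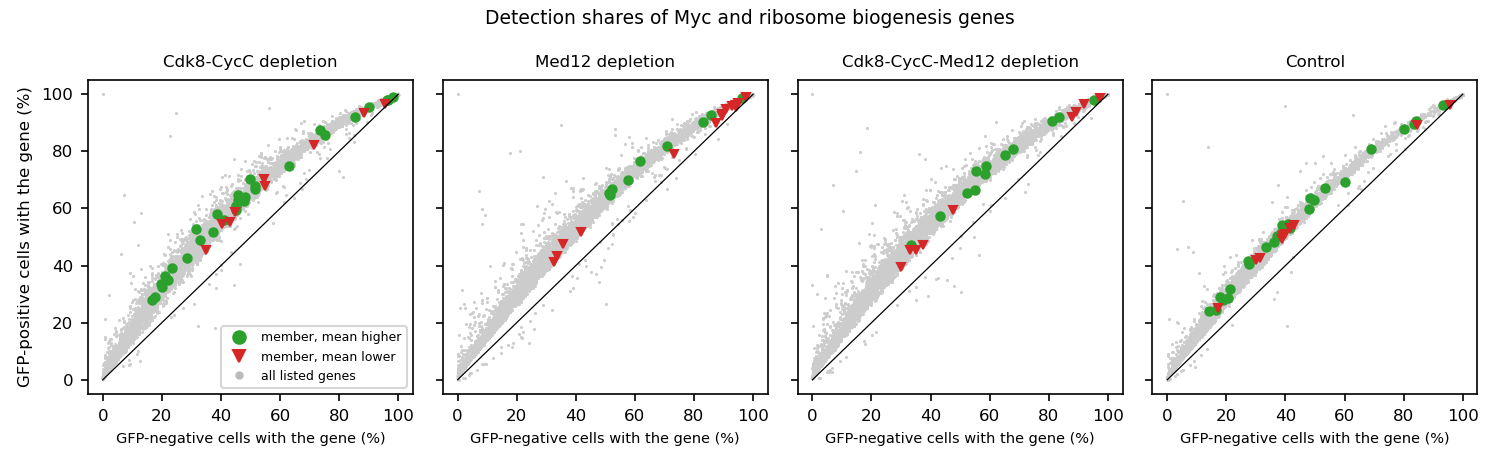
Percentage of GFP-positive cells (vertical axis) against percentage of GFP-negative cells (horizontal axis) in which a gene was found, 1 panel per library, for the Myc and ribosome biogenesis genes (green circles where the mean is higher in GFP-positive cells, red triangles where it is lower) and all listed genes (grey). All coloured points lie above the diagonal of equal shares in all 4 libraries, those of genes with a lower mean included.

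The share of cells in which these 12 genes were found differed between libraries in both cell sets. In GFP-positive cells the median share was 66.95% in the Cdk8-CycC depletion, 79.25% in the Med12 depletion and 76.85% in the combined depletion, against 58.45% in Control. In GFP-negative cells, where the driver is not active, it was 47.9%, 66.2% and 62%, against 45% in Control. All 4300 genes behaved alike, with medians in GFP-positive cells of 39.3%, 50.4% and 50.7% in the Cdk8-CycC, Med12 and combined depletions, against 32.5% in Control. The higher shares of the Med12 and combined depletions were therefore present in both cell sets and over all genes.

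The rest of the pathway was read from the lists of other genes. Of 25 other ribosome biogenesis genes listed in both tables, 20 were above Control in the Cdk8-CycC depletion, as were 5 of 6 in the Med12 depletion and 9 of 14 in the combined depletion. The median differences were 0.03, 0.02 and 0.01, so the direction seen for hoip, mod, Nnp-1 and Non1 in the Med12 depletion was not seen in 5 of the 6 other genes that could be compared there. No gene on the lists of other ribosome biogenesis, polymerase, exosome and Myc network genes differed from Control by 1.1-fold in any depletion. Few genes did: 3.19%, 3.17% and 3.29% of all genes were higher by it in the Cdk8-CycC, Med12 and combined depletions. Lower by it were 0.808%, 1.16% and 1.24% of all genes. On the Myc network list, pont lay at the limit in the Cdk8-CycC depletion with 0.14, just inside it. Some of the lowest genes had no Control value: within the Med12 depletion eIF6, which keeps immature large subunits from joining, had a log2 fold of -0.21, and CG4038, the fly Gar1 of the box H/ACA particle, had -0.12 there and -0.10 in the combined depletion. Neither was listed in Control. The lowest in the Cdk8-CycC depletion was l(1)G0020 with -0.05. Other genes of RNA polymerases I and III were above Control in 15 of 17 cases in the Cdk8-CycC depletion, 13 of 14 in the Med12 depletion and 9 of 13 in the combined depletion, with median differences of 0.03 in the Cdk8-CycC depletion, 0.02 in the Med12 depletion and 0.01 in the combined depletion. Of the other exosome genes, 4 of 5 were above Control in the Cdk8-CycC depletion, 1 of 3 in the Med12 depletion and 2 of 5 in the combined depletion. Over all genes with both values, 75.5% in the Cdk8-CycC depletion, 69.6% in the Med12 depletion and 71.3% in the combined depletion were above Control, so most of these counts lie near the share of all genes.

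Among the partners of Myc, the helicases pont and rept, which bind Myc and act in chromatin complexes and snoRNP assembly, were highest in the Cdk8-CycC depletion. The log2 fold of pont was 0.13 in the Cdk8-CycC depletion, -0.01 in the Med12 depletion and 0.02 in the combined depletion, against -0.01 in Control. That of rept was 0.15 in the Cdk8-CycC depletion and 0.08 in the combined depletion, against 0.03 in Control. Max itself was listed in Control with 0.06 and in no depletion. All 5 genes of this list that could be compared were above Control in the Cdk8-CycC depletion, 3 of 4 were in the Med12 depletion and 4 of 5 in the combined depletion. Of all genes, 75.5%, 69.6% and 71.3% were above Control in those depletions, so these counts are not particular to the list.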

How the data were processed

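Each library is a separate 10x Genomics sample. Cell Ranger 3.0.2 and an unnumbered release of Seurat made the tables, per the submitters' processing notes. Genome build, cell filters and doublet treatment are among the details not given in the sources used here, and no cell barcodes are in the tables. The authors' deposited fold is read as a natural log and was converted to log2, and the header does not state the base, so another base would scale every value by a common factor. It is positive where the table names the GFP-positive cells as the higher set. Detection is the deposited fraction of cells with the gene, printed as a percentage. The deposited p-value treats cells as replicates and was used only to see that all listed genes were below 0.01.

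The genes and lists were chosen with earlier results of these data known. Differences are between log2 folds of 2 libraries, over genes listed in both. Called means a fold of at least 1.3 with detection of at least 10% in a cell set, and 1.1 is a smaller fold. Any listed gene may be named, with full values for Myc, Mnt, those past 1.1-fold in a difference from Control and the 3 highest and lowest. Other settings were centring, detection ratios, unlisted genes at 0, log2 as the base, other folds and detection limits, and leaving out genes of another role. Older symbols were matched through a reference table of fly genes. Python 3.11.15 with pandas 2.3.3, tested on simulated data, was used.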

Additional observations from a re-analysis of the deposited data

Results flagged for a closer look

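For mod, the Cdk8-CycC depletion and the Med12 depletion lay on opposite sides of 0, at log2 folds of 0.09 and -0.16, and differed by 0.25. The combined depletion and the Cdk8-CycC depletion also lay on opposite sides for mod, at -0.08 and 0.09, and differed by -0.17, which would be -0.12 and inside the 1.1-fold limit were the deposited fold a log2 value. For NHP2, the Cdk8-CycC depletion and the Med12 depletion lay on opposite sides, at 0.11 and -0.10, and differed by 0.21. With 1 library per genotype none of these differences was tested.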

How the results depend on the processing

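Each genotype is 1 library, cell numbers and depth are unknown, and unlisted genes have no value, so no interval or test stands behind any count. No paired analysis was possible because each genotype has 1 library and no test was run. The 1.1-fold limit depends on the log base: with the deposited fold read as log2, 1 gene (Cdk8-CycC depletion) and 4 genes (Med12 depletion) were lower within the library, in place of 2 and 8. That reading also gave 0 in place of 2 genes higher by 1.1-fold in the Cdk8-CycC depletion, 0 in place of 1 lower by 1.3-fold in the Med12 depletion, and 2 in place of 4 lower than Control by 1.1-fold there. Between depletions it gave 2 in place of 5 genes higher in the Cdk8-CycC than in the Med12 depletion and 0 in place of 1 lower in the combined than in the Cdk8-CycC depletion.

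For the median difference from Control, the Cdk8-CycC depletion gave 0.0064 when centred on all genes, 0.029 with unlisted genes at 0, 0.048 by detection ratio, -0.040 by centred detection ratio (a reversed sign) and 0.032 without genes of another role. The Med12 depletion gave -0.070, -0.017, -0.099, -0.013 and -0.072, and the combined depletion -0.032, -0.011, -0.084, -0.055 and -0.018, in that order. With unlisted genes at 0, 29 of 41 genes in the Med12 depletion and 26 of 38 in the combined depletion lay below Control. By centred detection ratio 9 of 18 lay below Control in the Med12 depletion, so that the majority of 12 of 18 is not there on that measure, 13 of 18 in the combined depletion and 21 of 34 in the Cdk8-CycC depletion. By the same ratio 13 of 20 were lower in the Cdk8-CycC than in the Med12 depletion, and 12 of 14 were lower in the combined than in the Med12 depletion. Within libraries that ratio put 33 of 41, 24 of 24 and 20 of 21 genes of the Cdk8-CycC, Med12 and combined depletions below 0, and 27 of 35 of Control. Centring sets the median of all genes at 0, and the ratio is small for genes found in most cells in both sets. In GFP-positive cells of the Med12 depletion the median share was 79.25% for the 12 genes of the list that were listed everywhere, against 50.4% for all such genes. These 12 do not stand for the list. The part of detection level in the within-library counts was not tested, and the counts are not read here as a lowering of the list. Centring the fold put 17 of 41 below 0 in the Cdk8-CycC depletion. No gene differed from Control by 1.3-fold in any depletion. At 1.1-fold 4 did in the Med12 depletion and 1 in the combined depletion, and at 1.2-fold 1 in the Med12 depletion. The cause of these shifts was not tested. Reading the fold as log2, other than for the count past 1.3-fold from Control, and centring the 1.1-fold count within libraries were chosen after seeing the data.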

Other observations

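Of a list of growth genes linked to Myc or to the TOR pathway, eEF5, the translation factor that carries hypusine, was lower in every depletion than in Control. Its log2 fold was -0.04 in the Cdk8-CycC depletion, -0.03 in the Med12 depletion and -0.09 in the combined depletion, against 0.14 in Control. The differences from Control were -0.18, -0.17 and -0.23, each past 1.1-fold, where 0.808%, 1.16% and 1.24% of all genes were lower by it, and all of them rest on the single Control library. Were the deposited fold a log2 value, they would be -0.12, -0.12 and -0.16, and the combined depletion alone would be past 1.1-fold. The cap-binding factor eIF4E1 had 0.11, 0.07 and 0.05 in those depletions, against 0.11 in Control. The helicase eIF4A had -0.09, -0.10 and -0.07 in the depletions and was not listed in Control. CycD, Cdk4, Rheb, S6k and Tor lay between -0.06 and 0.07 wherever listed.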
